A study of Saccharomyces cerevisiae with 6 samples.

Results

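The 10 genes described here encode the sulfate assimilation and methionine branch of budding yeast metabolism: the activator gene MET4, the sulfate assimilation genes MET3, MET14, MET16 and MET10, the homocysteine and methionine genes MET2, MET17 and MET6, and the S-adenosylmethionine synthetase genes SAM1 and SAM2. They were chosen by gene symbol from 9335 probe sets on the array, with the brightest probe set taken for each gene. Each of the 10 had 1 probe set that names it alone, and 10 of 10 passed the filter on dim signals, as did 6956 probe sets in all. Total RNA of Saccharomyces cerevisiae was hybridised to 6 single-colour arrays. The groups were a gpr1 deletion (2 arrays), a gpa2 deletion (2 arrays) and wild type (2 arrays), and all were of the W303-1a background. GPR1 encodes the glucose-sensing G-protein-coupled receptor of yeast, GPA2 the G-protein alpha subunit that it acts through, and the series title names glucose-dependent cell size as its subject. Cells of these strains are called gpr1 cells and gpa2 cells below. The sources used here do not give the growth medium, the supply of methionine, the glucose state of the cultures, the way the deletions were made or the number of clones. The source label of gpa2 array 2 calls it a 2nd experiment, and the other labels carry no such mark. An array averages a whole culture, so that a change in some cells and a smaller change in every cell cannot be told apart.

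Yeast takes up sulfate and activates it with ATP in consecutive steps, reduces it to sulfite and then to sulfide, and joins the sulfide to a carbon chain made from homoserine. The homocysteine formed in this way is methylated to methionine, and methionine is converted to S-adenosylmethionine, the main methyl donor of the cell. Most genes of the branch are under the activator Met4, which is recruited to DNA by Cbf1 and by Met31 or Met32 and is held back by the ubiquitin ligase subunit Met30 when methionine is plentiful.

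The deleted genes read as labelled. The GPR1 probe set read 5.1 and 2.8 as deposited in gpr1 cells, 490.7 and 634.9 in gpa2 cells, and 1086.4 and 1013.9 in wild type. That of GPA2 read 1619.3 and 1029.2 in gpr1 cells, 9.3 and 10.9 in gpa2 cells, and 2410.3 and 1900.3 in wild type. W303-1a is of mating type a. The 4 markers of a cells, MFA1, MFA2, STE2 and BAR1, passed the filter, with a lowest deposited intensity of 1240.3. The 3 markers of alpha cells, MFALPHA1, MFALPHA2 and STE3, lay between 33.8 and 167.6, and MFALPHA1 did not pass the filter. Median deposited intensities ran from 225.1 to 562.9, a 2.5-fold span, and the gpa2 arrays were the dimmest, so values below are log2 intensities after quantile normalisation unless called deposited. Of the control genes read at both ends as signs of RNA quality, the 3′ over 5′ signal of SPT15 was 10.3 on wild-type array 2 against 3.16 to 4.83 elsewhere, while that of ACT1 was 1.29 there, inside the range of 1.26 to 1.54 on the other arrays. The part of the SPT15 ratio in the results was not tested. Apart from the mark on gpa2 array 2 given above, nothing in the labels bears on whether replicate arrays came from different cultures. The spread behind each p-value may thus be technical.

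Expression of the sulfate and methionine genes could not be told from wild type in either deletion, from the activator and the sulfate-activating enzymes through to the S-adenosylmethionine synthetases. The widest separation was that of MET2, 1.62-fold higher in gpa2 cells, and it did not pass the test. In gpr1 cells 0 of 10 passed the limma test (adjusted p of at least 0.902; 0 of 10 at an unadjusted p under 0.05), where 0.230% of all probe sets were called and 6.64% had an unadjusted p under 0.05. In gpa2 cells 0 of 10 passed by limma (adjusted p of at least 0.436), where 0.776% of all probe sets were called. Only MET2, 1 of 10, had an unadjusted p under 0.05 there, as did 11.4% of all probe sets. The mean of both deletions against wild type gave 0 of 10 calls by limma as well, where 0.791% of all probe sets were called. At an unadjusted p under 0.05 there were 0 of 10, against 11.1% of all probe sets. In that comparison 8 of 10 values were below 0, where 51.6% of all were, and 9 of 10 intervals lay inside a 2-fold change, where 69.4% of all did. Standard errors of the 10 log2 changes ran from 0.18 to 0.30 (n = 2 arrays per group). The 95% interval lay inside a 2-fold change in both directions for 10 of 10 genes in gpr1 cells and 9 of 10 in gpa2 cells, with MET2 as the exception. Among all probe sets tested the share was 61.2% for the gpr1 and 55.9% for the gpa2 deletion. A change as large as 1.92-fold in gpr1 cells, or 2.62-fold in gpa2 cells, is still inside an interval, so smaller effects on the branch could not be resolved.

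**Figure D1:**
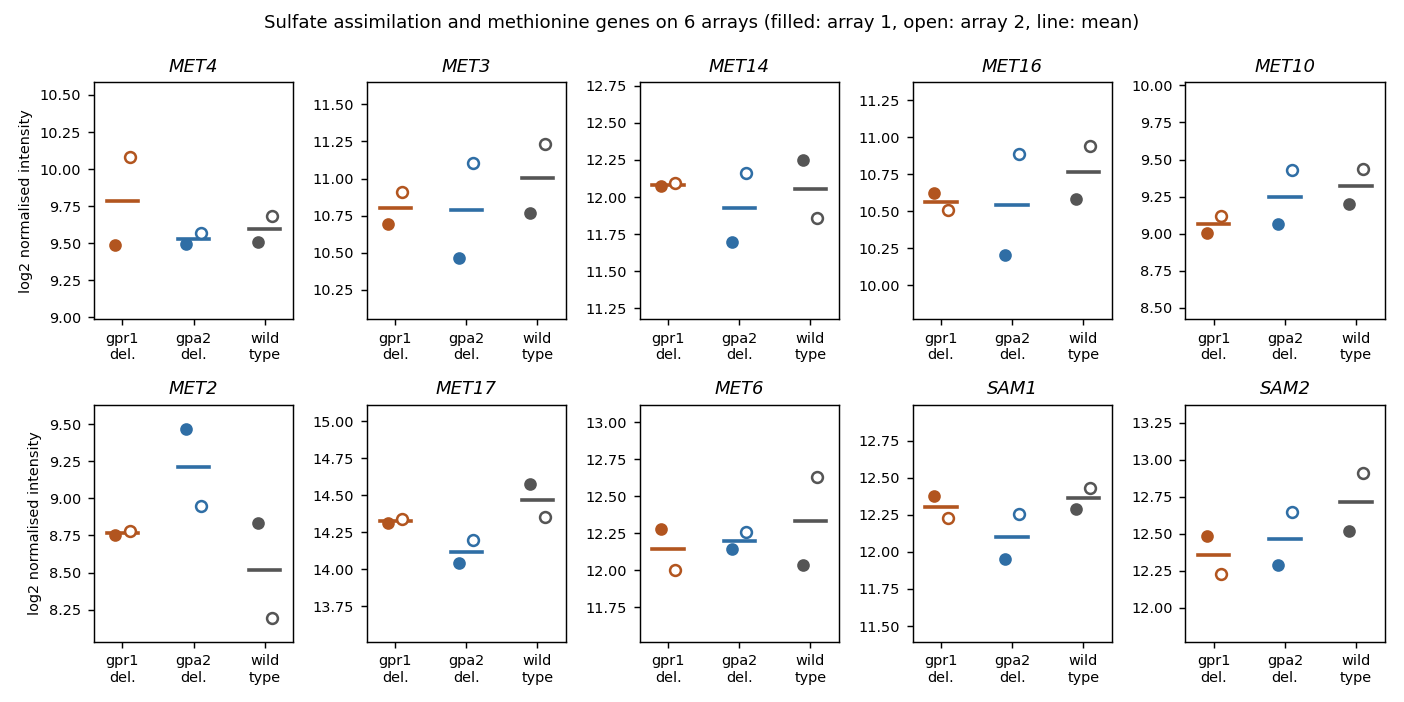
Log2 normalised intensity (vertical axis, 1 panel per gene, each panel spanning the same range) of the 10 genes in gpr1 cells, gpa2 cells and wild type. Filled points are array 1, open points array 2 and lines the mean of 2 arrays. The gap between the wild-type points was larger than the change from wild type for 8 of 10 genes in gpr1 cells and 7 of 10 in gpa2 cells. MET2 has its highest points in gpa2 cells.

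MET4 (YNL103W), the transcriptional activator of the branch, read 9.49 and 10.08 in gpr1 cells, 9.49 and 9.57 in gpa2 cells, and 9.50 and 9.68 in wild type. Its deposited intensities were 1042.9 and 796.7 in gpr1 cells, 428.1 and 494.1 in gpa2 cells, and 1102.4 and 861.3 in wild type. One array, gpr1 array 2, stood above the other 5, which lay close together. The log2 change was 0.19 ± 0.26 (SE) in gpr1 cells (limma adjusted p = 0.980) and -0.06 ± 0.26 in gpa2 cells (adjusted p = 0.953). The level of the MET4 message says nothing of the activity of its protein, which is known to be set largely by ubiquitination.

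Sulfate is activated by the ATP sulfurylase Met3. MET3 (YJR010W) read 10.69 and 10.91 in gpr1 cells, 10.46 and 11.11 in gpa2 cells, and 10.77 and 11.24 in wild type. The 3 groups overlapped, and the gpa2 arrays were farther apart than any group means. The log2 change was -0.20 ± 0.28 in gpr1 cells and -0.22 ± 0.28 in gpa2 cells (limma adjusted p = 0.980 and 0.816). On the deposited scale MET3 had 2340.3 and 1385.5 in gpr1 cells, 820.2 and 1442 in gpa2 cells, and 2621.8 and 2692.9 in wild type, so that the 4 mutant arrays were dimmer there. The median of all probe sets was dimmer on gpr1 array 2 and both gpa2 arrays than on either wild-type array. That of gpr1 array 1, 525.9, lay between those of the wild-type arrays, 562.9 and 373.6. The part of array brightness in the MET3 values was not tested.

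The adenylylsulfate kinase gene MET14 (YKL001C), which serves the next step, read 12.07 and 12.09 in gpr1 cells, 11.70 and 12.16 in gpa2 cells, and 12.25 and 11.86 in wild type. Its gpr1 arrays nearly coincided and lay between the wild-type arrays. MET14 had log2 changes of 0.03 ± 0.24 in gpr1 cells (-0.076 with centring on the median) and -0.13 ± 0.24 in gpa2 cells (limma adjusted p = 0.999 and 0.885).

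MET16 (YPR167C) encodes the reductase that releases sulfite. It read 10.62 and 10.51 in gpr1 cells, 10.20 and 10.89 in gpa2 cells, and 10.58 and 10.94 in wild type. The lowest and the second highest of its values both came from the gpa2 deletion. The changes were -0.20 ± 0.27 in gpr1 cells and -0.22 ± 0.27 in gpa2 cells (limma adjusted p = 0.980 and 0.811), nearly those of MET3.

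MET10 (YFR030W), which encodes a subunit of sulfite reductase, read 9.01 and 9.12 in gpr1 cells, 9.06 and 9.43 in gpa2 cells, and 9.20 and 9.44 in wild type. Both gpr1 arrays lay below both wild-type arrays, while the gpa2 arrays overlapped with them. Its log2 change was -0.25 ± 0.24 in gpr1 cells (limma adjusted p = 0.970) and -0.07 ± 0.24 in gpa2 cells (adjusted p = 0.939).

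MET5, the gene of the other sulfite reductase subunit, is not one of the 10 and had a different order. It read 10.97 and 11.22 in gpr1 cells, 11.63 and 11.16 in gpa2 cells, and 10.70 and 10.75 in wild type. Both deletions thus lay above wild type with no overlap, where 10.3% of all probe sets did. The change of MET5 did not pass the test either, at 0.37 ± 0.23 in gpr1 cells and 0.67 ± 0.23 in gpa2 cells (limma adjusted p = 0.90 and 0.322; unadjusted p = 0.145 and 0.0190).

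MET2 (YNL277W) encodes homoserine O-acetyltransferase, which prepares the carbon chain that receives sulfide. Its deposited intensities were 623.4 and 320.1 in gpr1 cells, 423.5 and 324.6 in gpa2 cells, and 703.8 and 297.2 in wild type. After scaling it read 8.75 and 8.78 in gpr1 cells, 9.47 and 8.95 in gpa2 cells, and 8.84 and 8.20 in wild type. The gpa2 arrays lay above the gpr1 and wild-type arrays with no overlap, and the gpr1 arrays fell between the wild-type arrays. MET2 averaged 8.77 ± 0.02 in gpr1 cells, 9.21 ± 0.37 in gpa2 cells and 8.52 ± 0.45 in wild type (SD, n = 2 each). Its log2 change in gpa2 cells was 0.69 ± 0.30, a 1.62-fold difference with a 95% interval of 1.00 to 2.62, and it did not pass the limma test over all probe sets (adjusted p = 0.436; unadjusted p = 0.0497, where 11.4% of all probe sets were under 0.05). Single arrays moved this value: it was 0.44 and 0.95 without gpa2 array 1 or 2, and 1.02 and 0.37 without wild-type array 1 or 2. Without scaling it was -0.30, with all probe sets at a median of -1.02. In gpr1 cells the change was 0.25 ± 0.30 (adjusted p = 0.980), and between the deletions, gpr1 minus gpa2, it was -0.45 ± 0.30 (adjusted p = 0.9997).

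The sulfide is added to that chain by the sulfhydrylase Met17. MET17 (YLR303W) had deposited intensities of 23638.9 and 18506.8 in gpr1 cells, 12594.4 and 15989.8 in gpa2 cells, and 26352 and 23981.8 in wild type, where the brightest probe set of wild-type array 1 read 33247.6. After scaling it read 14.32 and 14.34 in gpr1 cells, 14.05 and 14.20 in gpa2 cells, and 14.58 and 14.36 in wild type. Wild type was highest, the gpr1 deletion next and the gpa2 deletion lowest, with no overlap between any groups. Of the 10 genes, only MET17 had its 4 mutant arrays below both wild-type arrays, where 11.0% of all probe sets did. For 0 of 10 genes did all 4 lie above, where 10.3% did. The log2 change of MET17 was -0.14 ± 0.18 in gpr1 cells and -0.35 ± 0.18 in gpa2 cells (limma adjusted p = 0.980 and 0.506). The sign rests on the scaling, since centring on the median gave 0.03 in gpr1 cells and 0.16 in gpa2 cells.

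Homocysteine is methylated by the methionine synthase Met6. MET6 (YER091C) read 12.28 and 12.00 in gpr1 cells, 12.14 and 12.26 in gpa2 cells, and 12.04 and 12.63 in wild type. Wild-type array 2 was the highest of the 6 and wild-type array 1 the second lowest. The change of MET6 was -0.19 ± 0.24 in gpr1 cells and -0.14 ± 0.24 in gpa2 cells (limma adjusted p = 0.980 and 0.881).

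SAM1 (YLR180W) and SAM2 (YDR502C) encode near-identical S-adenosylmethionine synthetases. SAM1 read 12.38 and 12.23 in gpr1 cells, 11.95 and 12.25 in gpa2 cells, and 12.29 and 12.43 in wild type. Both gpa2 arrays lay below wild type and the gpr1 arrays overlapped with it, with changes of -0.06 ± 0.20 in gpr1 cells and -0.26 ± 0.20 in gpa2 cells (limma adjusted p = 0.998 and 0.666). SAM2 read 12.49 and 12.23 in gpr1 cells, 12.29 and 12.65 in gpa2 cells, and 12.52 and 12.91 in wild type. Here both gpr1 arrays lay below wild type while the gpa2 arrays overlapped with it, with changes of -0.36 ± 0.23 in gpr1 cells and -0.25 ± 0.23 in gpa2 cells (limma adjusted p = 0.902 and 0.728). Of all probe sets, 16.3% lay below wild type with no overlap in gpr1 cells and 20.8% in gpa2 cells. The arrays that lay below wild type thus differed between the paralogues, though their changes in gpa2 cells, -0.26 and -0.25, were nearly the same. The difference of gpr1 minus gpa2 was 0.20 ± 0.20 for SAM1 and -0.11 ± 0.23 for SAM2, and neither passed (adjusted p = 0.9997 for both).

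A further probe set names both SAM1 and SAM2. It read 14.34 and 14.44 in gpr1 cells, 14.33 and 14.54 in gpa2 cells, and 13.85 and 14.53 in wild type. Its changes were positive, 0.20 ± 0.24 in gpr1 cells and 0.25 ± 0.24 in gpa2 cells (limma adjusted p = 0.980 and 0.745), against negative values on the probe sets of each gene alone. Wild-type array 1 was the lowest of the 6, and wild-type array 2 lay above the mean of either deletion. Since these genes are close in sequence, part of the signal of any of the 3 probe sets may come from the other gene.

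**Figure D2:**
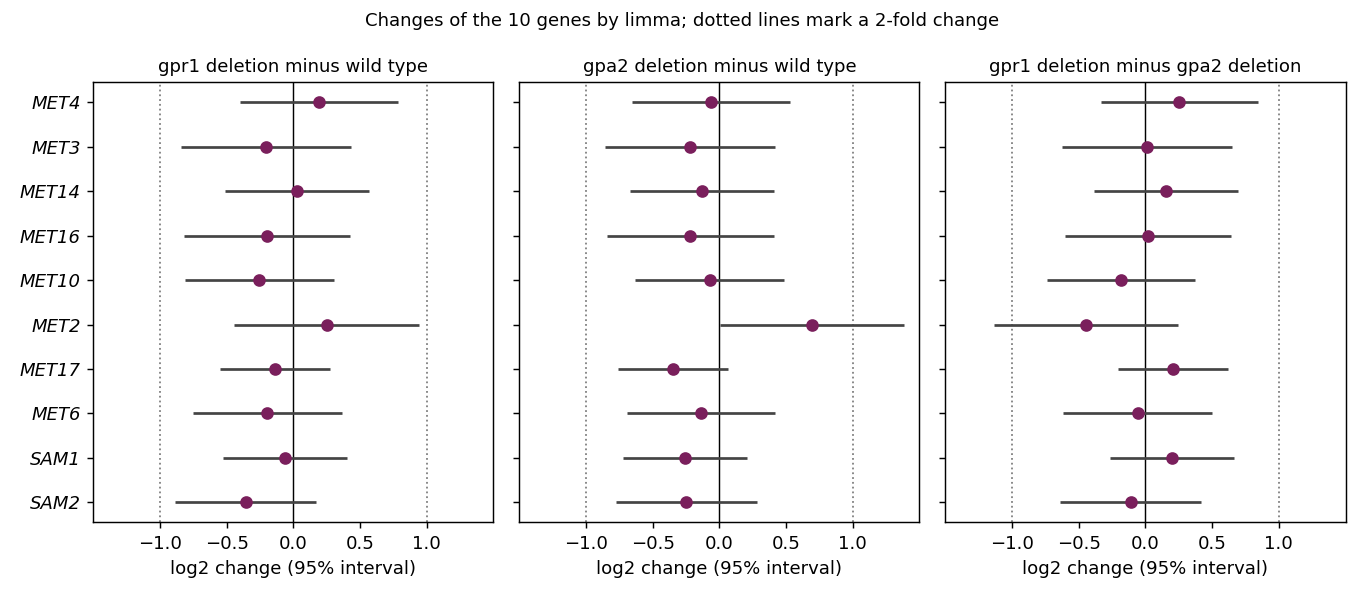
Log2 change (horizontal axis) of each gene with its 95% interval from limma, for the gpr1 deletion minus wild type, the gpa2 deletion minus wild type and the gpr1 minus the gpa2 deletion (n = 2 arrays per group; dotted lines, 2-fold). MET2 in gpa2 cells, at 0.69, is the only value against wild type whose interval reaches past the dotted line.

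The members were next taken as a group. Their median log2 change was -0.17 in gpr1 cells, with 7 of 10 values below 0, and -0.18 in gpa2 cells, with 9 of 10 below 0. Over all probe sets tested the medians were -0.0007 and -0.02, and 50.1% and 52.1% of values were below 0. The 2 comparisons share the wild-type arrays, so their likeness is no separate evidence. The medians moved with single arrays. For gpr1 cells it was -0.25 with wild-type array 1 left out and -0.05 with wild-type array 2 left out. In gpa2 cells it was 0.04 and -0.38 without gpa2 array 1 or 2, and -0.28 and -0.01 without wild-type array 1 or 2. Centring on the median in place of quantile normalisation gave -0.20 in gpr1 cells and -0.23 in gpa2 cells.

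Counts of separated arrays were small, and whether they differ from those of all probe sets was not tested. In gpr1 cells 3 of 10 genes, MET10, MET17 and SAM2, lay below wild type with no overlap, where 16.3% of all probe sets did, and 0 of 10 lay above, where 16.1% did. In gpa2 cells 2 of 10, MET17 and SAM1, lay below, where 20.8% did, and 1 of 10, MET2, lay above, where 19.0% did. The gap between the wild-type arrays was larger than the change for 8 of 10 genes in gpr1 cells and for 7 of 10 in gpa2 cells.

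The deletions were also set against each other, which asks whether loss of the receptor and of its G protein differ in this branch. By limma 0 of 10 genes passed (0 of 10 at an unadjusted p under 0.05), where 0.0288% of all probe sets were called and 2.34% had an unadjusted p under 0.05. Of the 10 values, 4 were below 0, where 47.9% of all were. The median of gpr1 minus gpa2 was 0.02, against 0.01 over all probe sets, and 9 of 10 intervals lay inside a 2-fold change, where 68.0% of all did. The exception was again MET2. Without gpa2 array 1 or 2 the median was -0.15 and 0.29. MET2 lay lower and MET17 higher in gpr1 than in gpa2 cells with no overlap, where 15.9% and 15.0% of all probe sets did. For MET17 centring on the median turned the difference of 0.21 ± 0.18 to -0.13.

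The 10 genes did not vary as 1 unit. Over the 6 arrays, MET3 and MET16 had a Pearson's r of 0.92, MET3 and MET10 0.88, MET6 and SAM2 0.87, MET16 and SAM2 0.86, MET16 and SAM1 0.82, and MET16 and MET10 0.81. MET14 and MET17 were closer to each other (0.69) than to MET3, MET16 or MET10. MET4, the activator, had r of -0.07 to the mean of the other 9 genes. MET2 ran opposite to the rest, with r of -0.89 to that mean and -0.92 to SAM1. In all, 32 of 45 pairs had r above 0, and the median r was 0.26. These values describe 6 arrays, which share their scaling, and carry no test.

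Much of this pattern lay within the groups. MET3, MET14, MET16, MET17 and SAM1 were each lowest on gpa2 array 1, and 9 of 10 genes read higher on gpa2 array 2 than on gpa2 array 1, MET2 being the exception. On wild-type array 2, where the SPT15 ratio was high and the ACT1 ratio was not, MET3, MET16, MET10, SAM1, SAM2 and MET6 had their highest value and MET2 its lowest. The mean of the 10 genes was 11.21 and 11.23 in gpr1 cells, 11.08 and 11.35 in gpa2 cells, and 11.26 and 11.37 in wild type. The dimmest array, gpa2 array 1, had the lowest mean, and the brightest, wild-type array 1, had 11.26. Over the 6 arrays this mean had a Pearson's r of 0.18 with the log2 median deposited intensity of probe sets that are not controls. The part of array brightness in these means was not tested.

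**Figure D3:**
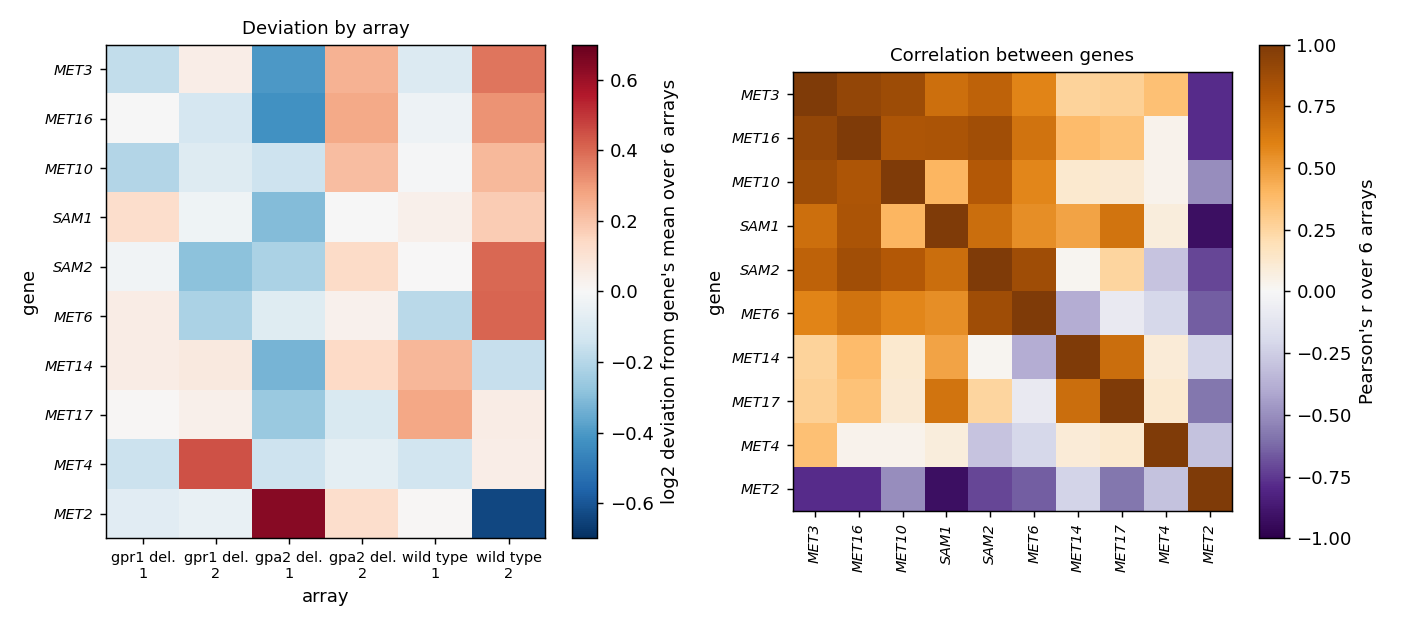
Left, deviation of each gene from its own mean over 6 arrays (log2, colour) by array; right, Pearson's r between genes over the 6 arrays (colour). MET3, MET16 and MET10 form a block with r between 0.81 and 0.92, and the MET2 row is opposite, down to -0.92 with SAM1.

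Genes outside the branch followed the mean of the 10 closely as well. The 5 with the highest Pearson's r over 6 arrays were YOL029C (0.990), the tRNA methyltransferase gene TRM7 (0.985), the chromatin remodeller gene CHD1 (0.981), the zinc finger gene GAT2 (0.979) and TIS11 (0.977), which encodes an mRNA-binding protein of iron limitation. TIS11 read 6.21 and 6.37 in gpr1 cells, 5.22 and 7.22 in gpa2 cells, and 6.15 and 7.29 in wild type, with the second array higher in each group. These 5 were the highest among tested probe sets that name 1 gene and lie outside the gene lists and markers described here. Of all 6956 probe sets tested, 1.21% had r above 0.9, and the median r was 0.10.

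The branch draws on other steps, and 42 further genes of uptake, reduction, cysteine synthesis, homoserine supply, folate, regulation, recycling and salvage were examined, all of which passed the filter. By limma 0 of 42 passed in gpr1 cells, where 2 were lower and 0 higher at an unadjusted p under 0.05, and 0 of 42 passed in gpa2 cells, where 2 were lower and 3 higher. For the mean of both deletions the count was again 0 of 42, with 3 lower and 3 higher at an unadjusted p under 0.05, where 5.13% of all probe sets were lower and 5.97% higher. Unadjusted p lay under 0.05 for 3.02% of all probe sets lower and 3.62% higher in gpr1 cells, and for 5.35% lower and 6.10% higher in gpa2 cells. Of all probe sets tested, 0.230% passed in gpr1 cells, 0.776% in gpa2 cells and 0.791% for the mean of both deletions. The median log2 change of the 42 was -0.08 in gpr1 cells and -0.06 in gpa2 cells. All 4 mutant arrays lay below both wild-type arrays for 4 of 42, where 11.0% of all probe sets did. They lay above for 3 of 42, where 10.3% did. The gpr1 arrays alone lay below for 10 of 42 and above for 6, where 16.3% and 16.1% of all did. The gpa2 arrays alone lay below for 7 of 42 and above for 6, where 20.8% and 19.0% did. Whether these counts differ from those of all probe sets was not tested.

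The sulfate permease gene SUL2 had the smallest p of these genes. It read 8.70 and 9.00 in gpr1 cells, 9.18 and 9.09 in gpa2 cells, and 8.38 and 8.26 in wild type. Both deletions lay above wild type with no overlap, where 10.3% of all probe sets did. The changes of SUL2 were 0.53 ± 0.24 in gpr1 cells and 0.81 ± 0.24 in gpa2 cells (limma adjusted p = 0.785 and 0.264; unadjusted p = 0.0609 and 0.00969). SUL1, the gene of the other sulfate permease, had values of opposite sign, -0.21 ± 0.50 and -0.49 ± 0.50 (adjusted p = 0.995 and 0.756). As deposited, SUL1 read 35.2 to 118.2 over the 6 arrays. All of these lay within the range of the alpha-cell markers, 33.8 to 167.6, so its change is that of a dim signal. Among the genes of reduction, MET8 of siroheme synthesis had 0.34 in gpr1 cells and 0.50 in gpa2 cells, and MET22, a phosphatase gene of the sulfate pathway, -0.26 and -0.28. The MET8 signal, 86.9 to 279.3 as deposited, lay in part within the range of the alpha-cell markers.

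In the methionine salvage route, which recovers methionine from methylthioadenosine, the 2 first enzymes stood lowest. MEU1, the methylthioadenosine phosphorylase gene, read 6.32 and 6.59 in gpr1 cells, 6.12 and 6.13 in gpa2 cells, and 7.38 and 7.05 in wild type. As deposited, MEU1 read 111.6 and 69.1 in gpr1 cells, 46.6 and 42.4 in gpa2 cells, and 274 and 125.3 in wild type. All but the value of 274 lay within the range of the alpha-cell markers, 33.8 to 167.6, so its change is that of a dim signal. MRI1, the isomerase gene, read 8.98 and 8.52 in gpr1 cells, 8.74 and 8.06 in gpa2 cells, and 9.65 and 9.17 in wild type. For both genes the 4 mutant arrays lay below wild type, where 11.0% of all probe sets did. Changes of MEU1 were -0.76 ± 0.41 in gpr1 cells and -1.09 ± 0.41 in gpa2 cells, and those of MRI1 were -0.66 ± 0.32 and -1.01 ± 0.32. None passed by limma (adjusted p = 0.841 and 0.362 for MEU1, 0.820 and 0.289 for MRI1). MDE1, a later step of the route, had 0.28 and 0.06.

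STR3, the cystathionine beta-lyase gene that leads from cysteine back to homocysteine, had the smallest p of the 42 genes in gpr1 cells. It read 7.27 and 7.18 in gpr1 cells, 7.81 and 7.58 in gpa2 cells, and 8.18 and 8.07 in wild type, with the groups in this order and no overlap. Of all probe sets, 11.0% had both deletions below wild type with no overlap. As deposited, STR3 read 219.4 and 103.6 in gpr1 cells and 138.3 and 122.2 in gpa2 cells. Of these, only 219.4 lay above the range of the alpha-cell markers, 33.8 to 167.6. The change of STR3 was -0.90 ± 0.30 in gpr1 cells and -0.43 ± 0.30 in gpa2 cells (limma adjusted p = 0.536 and 0.609; unadjusted p = 0.0147 and 0.180). The other genes of transsulfuration named by rank, CYS3 and CYS4, had 0.14 and 0.15 in gpr1 cells, and -0.13 and -0.17 in gpa2 cells.

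Of the uptake genes, the methionine permease gene MUP3 read 7.78 and 8.07 in gpr1 cells, 7.99 and 8.62 in gpa2 cells, and 8.40 and 9.12 in wild type. Its change was -0.83 ± 0.35 in gpr1 cells and -0.46 ± 0.35 in gpa2 cells (limma adjusted p = 0.708 and 0.654). SAM3, the S-adenosylmethionine permease gene, had -0.03 in gpr1 cells and 0.48 in gpa2 cells. These SAM3 values come from the brightest of 5 probe sets that name it alone, and the others are not described here. MMP1, the S-methylmethionine permease gene, had -0.38 in both. The thioredoxin gene TRX2, whose product serves sulfate reduction, read 13.02 and 13.25 in gpr1 cells, 13.37 and 13.27 in gpa2 cells, and 12.65 and 12.93 in wild type. TRX2 had changes of 0.35 ± 0.20 in gpr1 cells and 0.54 ± 0.20 in gpa2 cells (adjusted p = 0.875 and 0.357), and neither passed.

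Regulators of the branch gave values near 0 or with wide errors. The partner of Met4 on DNA, MET32, had -0.53 ± 0.39 in gpr1 cells and -0.40 ± 0.39 in gpa2 cells, MET28 -0.07 and 0.25, and the ligase subunit gene MET30 -0.26 and -0.11 (limma adjusted p of at least 0.728 for these 3 in both deletions). The MET32 signal, 72.4 to 225 as deposited, lay in part within the range of the alpha-cell markers. The homoserine supply genes HOM3, HOM6 and HOM2 lay between -0.35 and 0.20 in both deletions. For the folate genes, SHM2 had 0.24 in gpr1 cells and 0.37 in gpa2 cells, MET12 0.02 and -0.47, and SHM1 -0.24 and -0.28. Genes that use S-adenosylmethionine or recycle its products gave -0.34 and 0.08 for the decarboxylase SPE2, 0.38 and 0.17 for the adenosine kinase ADO1, and -0.16 and -0.28 for the methyltransferase SAM4, the gpr1 deletion first in each.

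Amino acid genes outside the branch are the closest group for comparison. Of 29 such genes, 24 had values below 0 in gpr1 cells (median -0.32) and 24 in gpa2 cells (median -0.34), where 50.1% and 52.1% of all probe sets were below 0. By limma 0 of 29 passed in each, where 0.230% and 0.776% of all probe sets did. At an unadjusted p under 0.05, 4 were lower and 0 higher in gpr1 cells, where 3.02% of all were lower, and 3 were lower and 0 higher in gpa2 cells, where 5.35% were. Both mutant arrays lay below both wild-type arrays for 12 of 29 in gpr1 cells, where 16.3% of all did, and for 13 of 29 in gpa2 cells, where 20.8% did, and above them for 2 and 0 of 29, where 16.1% and 19.0% did. The 10 sulfate and methionine genes had medians of -0.17 and -0.18. Whether the 2 groups of genes differ was not tested.

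**Figure D4:**
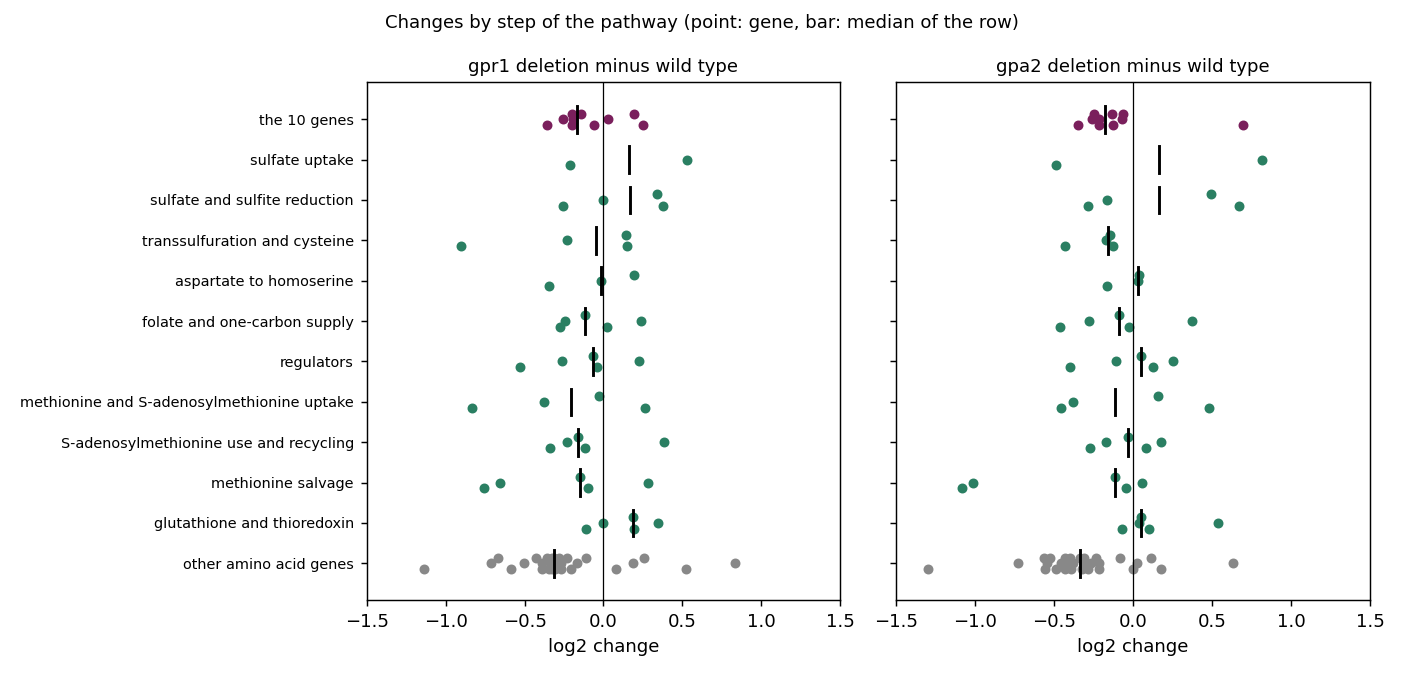
Log2 change of each gene (points, horizontal axis) by step of the pathway, with the median of each row as a bar, for the gpr1 deletion minus wild type (left) and the gpa2 deletion minus wild type (right). The medians of the 10 genes, -0.17 and -0.18, lie between 0 and those of the other amino acid genes, -0.32 and -0.34; no gene shown passed the test.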

How the data were processed

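Values were intensities on a linear scale, 1 per probe set and array, as deposited by the authors; single-colour labelling is given per the labels, and the sources used here do not give the summary method or any scaling. Groups came from the sample titles. The 6 arrays were quantile normalised, values under the pooled 10th percentile (intensity 8.94) were raised to it, and log2 was taken. Control probe sets (60) and 2319 dim ones, under the 25th percentile of the mean, were left out. limma 3.58.1 (R 4.3.3) tested the changes over 6956 probe sets, with 1 coefficient per group, moderation with a trend and Benjamini-Hochberg adjustment at 0.05. The procedure was also run on simulated data. The changes planted there were larger than any of the 10 genes, so the run does not show how often changes of their size would be found. Gene names came from the platform annotation and, for 6504 probe sets, were matched to the R64 gene table; 5650 of those tested name 1 gene, 275 several and 1031 none. All 10 members are named, and of the further genes up to 3 per step by the smallest p. The members and lists were chosen with earlier results of these data known. Alternatives were other scalings, floors, filters and moderation, a replicate block, only the groups compared, and leaving out each array. Precision is limited by 2 arrays per group. No sequences were used.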

Additional observations from a re-analysis of the deposited data

Results flagged for a closer look

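The deletions differed in the deleted genes themselves: gpr1 minus gpa2 was -6.65 on the log2 scale for GPR1 and 6.18 for GPA2 (limma adjusted p = 4.60e-05 for both), which follows from the strains. In gpr1 cells both GPR1 readings were raised to the floor, 3.16, and GPA2 read 3.83 and 4.40 on the gpa2 arrays, close to it, so neither size is an exact difference.

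Among the further genes of the pathway, the arrays of the deletions lay on opposite sides of the wild-type mean for 2 of 42 genes. The share of all probe sets with this pattern was not counted. Over all probe sets tested, the gpr1 arrays lay above both gpa2 arrays for 15.0% and below both for 15.9%. SPE2, the S-adenosylmethionine decarboxylase gene, read 10.92 and 10.98 in gpr1 cells, 11.37 and 11.37 in gpa2 cells, and 11.16 and 11.41 in wild type. Its gpr1 minus gpa2 difference was -0.42 ± 0.20 (SE, n = 2 arrays each) and did not pass (limma adjusted p = 0.9997; unadjusted p = 0.0681). CYS3, the cystathionine gamma-lyase gene, read 13.42 and 13.19 in gpr1 cells, 12.92 and 13.15 in gpa2 cells, and 13.43 and 12.90 in wild type, with a difference of 0.27 ± 0.23 that did not pass either (adjusted p = 0.9997). None of the 10 genes showed such opposite sides.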

How the results depend on the processing

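Of 590 changes of the 10 genes under alternatives, 542 kept their sign and stayed outside the threshold, 48 turned sign and 0 passed; the lowest adjusted p was 0.0962, for SAM2 in the gpa2 deletion on the values as deposited. No call of a member existed to lose. Taking the mean of several probe sets was not run, because each gene has 1 that names it alone. None of the 10 genes was at the floor on any array, and there were 2 arrays per group.

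On the values as deposited the median of all probe sets was -0.32 in the gpr1 deletion, -1.02 in the gpa2 deletion, -0.67 for their mean and 0.70 for gpr1 minus gpa2, and the members' medians of -0.50, -1.22, -0.85 and 0.67 moved with it. There the sign turned for MET4 (-0.10), MET14 (-0.37) and MET2 (-0.034) in the gpr1 deletion, MET2 (-0.30) in the gpa2 deletion, MET4 (-0.59) and MET2 (-0.17) for the mean, and MET10 (0.52), MET2 (0.27), MET6 (0.61) and SAM2 (0.55) for gpr1 minus gpa2. Centring on the median turned MET14 (-0.076) and MET17 (0.030) in the gpr1 deletion, and MET17 in the gpa2 deletion (0.16), for the mean (0.10) and for gpr1 minus gpa2 (-0.13).

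The count of all probe sets called in the gpr1 deletion (16) was 6 without a trend, 33 with the replicate block and 8 with only the groups compared. In the gpa2 deletion (54) it was 126 as deposited, 15 without the filter, 26 without a trend, 123 with the replicate block and 27 with only the groups compared. For the mean (55) it was 15 without the filter, 29 without a trend and 131 with the replicate block. For gpr1 minus gpa2 (2) it was 10 as deposited, 5 without the filter and 1 with the filter at the 40th percentile. The cause was not tested. The numbers pair no samples by the labels. The correlation of array 1 minus array 2 between groups was 0.21, 0.20 and 0.40, and with the block 0 of 10 members passed in each of the 4 comparisons.

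Leaving out 1 array gave 5 (without gpr1 array 2) to 53 (without wild-type array 1) calls in the gpr1 deletion, 7 (without gpa2 array 1) to 179 (without wild-type array 1) in the gpa2 deletion, 17 to 142 for the mean and 2 to 5 for gpr1 minus gpa2. The members' medians ran from -0.25 to -0.05, from -0.38 to 0.04, from -0.26 to -0.04 and from -0.15 to 0.29 in the same order. Changes that turned sign in the gpr1 deletion ran from -0.10 to 0.49 for MET4, -0.44 to 0.031 for MET3, -0.17 to 0.22 for MET14, -0.072 to 0.57 for MET2, -0.49 to 0.10 for MET6 and -0.14 to 0.015 for SAM1. In the gpa2 deletion they ran from -0.15 to 0.026 for MET4, -0.54 to 0.10 for MET3, -0.36 to 0.10 for MET14, -0.56 to 0.13 for MET16, -0.25 to 0.11 for MET10 and -0.43 to 0.16 for MET6. For the mean they ran from -0.083 to 0.21 for MET4, -0.44 to 0.024 for MET3, -0.25 to 0.15 for MET14 and -0.46 to 0.13 for MET6. For gpr1 minus gpa2 they ran from -0.042 to 0.55 for MET4, -0.31 to 0.34 for MET3, -0.078 to 0.39 for MET14, -0.32 to 0.36 for MET16, -0.36 to 0.00011 for MET10, -0.20 to 0.080 for MET6 and -0.29 to 0.068 for SAM2.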
